A study of Mus musculus with 6 samples.

Results

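Immunoglobulin transcripts were followed in the livers of 6 male mice, through the genes of the heavy, kappa and lambda chain loci and the gene of the joining chain (Jchain). The members were all genes named as immunoglobulin constant regions, as heavy V or D segments, as kappa V or J segments, as lambda V segments, or as Jchain, that had a count above 0 in any library. Of the 55401 genes in the deposited table, 387 matched by name and 151 of those were counted. These were 63 of 185 heavy V segments, 71 of 160 kappa V segments (1 of them annotated as a pseudogene), 2 of 3 lambda V segments, 3 of 5 kappa J segments, 4 of 4 IgG constant genes, 3 of 4 lambda constant genes, and Igha, Ighd, Ighm, Igkc and Jchain. The IgE constant gene and all 20 heavy D segments were listed at 0 in every library.

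Livers came from 3 mice that carried floxed Prdx1 alleles and a Cre transgene under the albumin promoter (genotype Prdx1(lox/lox);Alb-cre, called Alb-cre livers here) and from 3 mice that carried the floxed alleles alone (genotype Prdx1(lox/lox), called lox/lox livers). Cre under this promoter is used to recombine floxed DNA in hepatocytes, which do not make antibodies. The mice of both genotypes were started at 8 weeks of age on MCD, an abbreviation that the labels do not spell out, and stayed on it for 5 weeks. No group without the diet and no group with Cre alone was analysed here, so an effect of the transgene cannot be told apart from that of Prdx1 loss. Poly(A) RNA of whole liver was sequenced as read pairs.

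An antibody is built from heavy and light chains, and each chain joins a variable part, made from V, J and for the heavy chain D segments, to a constant part. The heavy constant gene sets the class. IgM and IgD are the classes of naive B cells, whose heavy chain transcripts are spliced to either constant gene, whereas IgG, IgE and IgA follow class switching. Plasma cells, which descend from B cells, secrete antibody and hold most of the immunoglobulin RNA of a tissue. The J chain links IgA and IgM into polymers, which the polymeric immunoglobulin receptor (Pigr) carries across epithelia and, in mice, across hepatocytes into bile. The liver is not a site of B cell development in adult mice.

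Library depth was 58790874, 78291273 and 77300027 deposited counts in Alb-cre livers and 63189210, 67319086 and 66115966 in lox/lox livers. The targeted gene Prdx1, a peroxide-reducing enzyme, was at 75.4 to 111 CPM (deposited counts per 1000000, on library sizes scaled by TMM factors) in Alb-cre livers and at 570 to 663 CPM in lox/lox livers, in the direction of the labels. Albumin (Alb), which marks hepatocytes and was picked after its values were seen, was at 39540 to 50429 CPM in Alb-cre livers and at 66395 to 86389 CPM in lox/lox livers. Low deposited counts piled up at multiples of 4: over the 6 libraries 4877 values were 4, against 1811 at 3 and 1065 at 5, and 3111 were 8, against 1034 at 7 and 769 at 9. Of 38723 values from 1 to 40, 34.8% were multiples of 4, and of such values of V segments 44.2%, where an even spread gives 25%, so most low values were not multiples of 4. For floors and counting intervals a read pair was taken as 4 counts, an assumption that was not tested further, and a group with no count was set to a floor of 12 counts, or 3 read pairs. Intervals and floors cover counting error only.

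Immunoglobulin RNA was more abundant in every Alb-cre liver than in any lox/lox liver. The 151 members summed to 123, 96.8 and 66.2 CPM in Alb-cre livers and to 14.2, 16.4 and 17.7 CPM in lox/lox livers, or 95.3 ± 28.5 CPM against 16.1 ± 1.76 CPM (SD, n = 3 each), a ratio of means of 5.93. Without Igha, the member of highest mean, the ratio was 3.86. The IgA, IgG, J chain, kappa constant, lambda constant, heavy V, kappa V and lambda V sums were each higher in every Alb-cre liver, the IgD sum was lower, and the IgM sums overlapped. Sums over members were given no test. In whole liver, more antibody-producing cells and more immunoglobulin RNA per cell cannot be told apart.

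**Figure D1:**
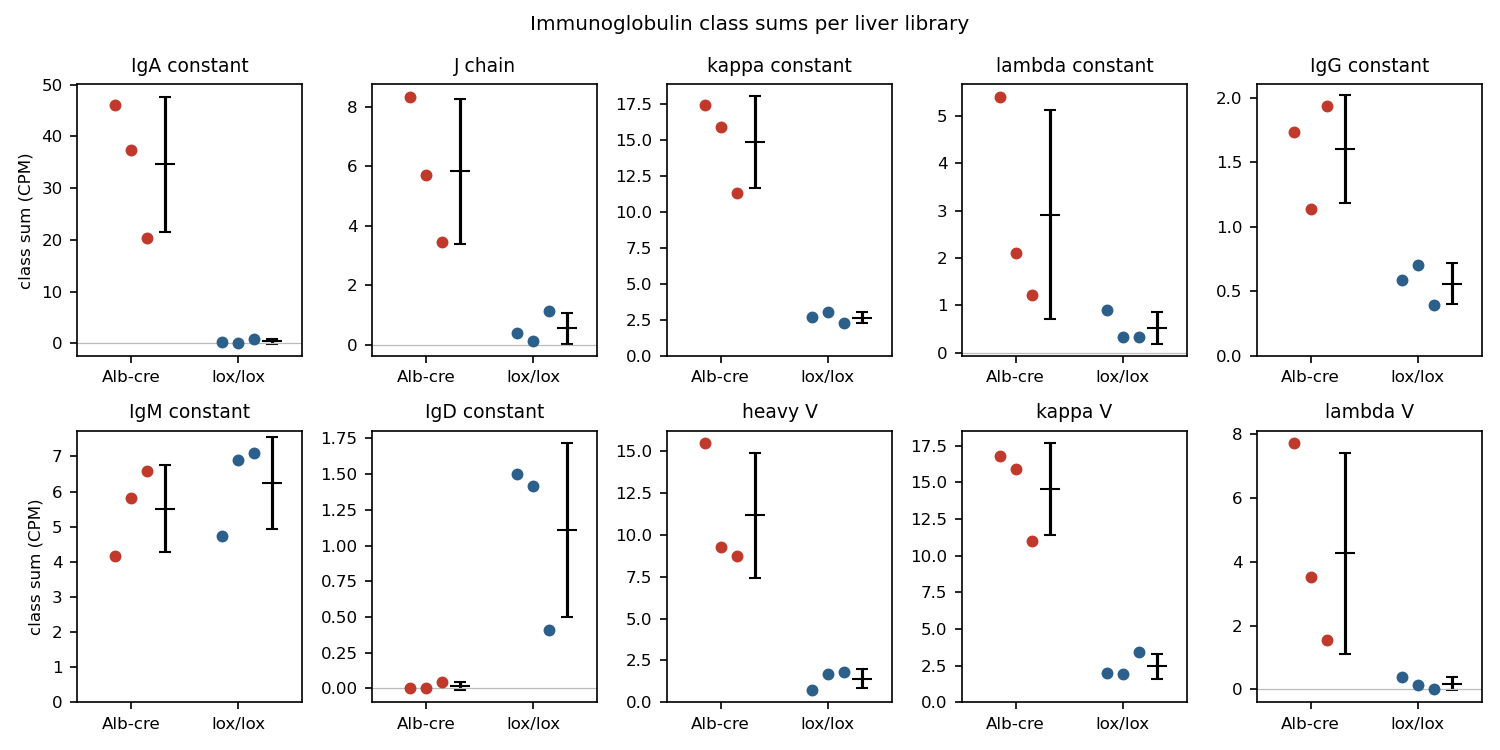
Summed level of each immunoglobulin class in CPM (vertical axes, linear, scaled per panel) in the 3 Alb-cre livers (red, left) and the 3 lox/lox livers (blue, right), with 1 point a library and the mean ± SD beside the points. IgA reached 46.1 CPM in an Alb-cre liver against at most 0.787 CPM in a lox/lox liver, IgD went the other way, and the IgM points overlapped.

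Of the 151 members, 23 had enough counts to be tested with the quasi-likelihood test of edgeR (p-values adjusted by Benjamini-Hochberg over 18931 genes, threshold 0.05). Among these, 12 were higher and 1 lower in Alb-cre livers and 10 did not pass. The background was high: 19.9% of all tested genes were called higher and 18.0% lower. A member could be tested through its counts in the group where it is high, so the 12 are not read against the 23. Against all genes with a count in any library, of which 13.7% were called higher and 12.4% lower, the members' shares of 7.95% and 0.66% lay below the background. The groups did not overlap for 20 members with Alb-cre above and 1 with Alb-cre below, against 21.3% and 18.0% of all 27476 genes with a count. Most members had too few counts for a test of their own. Of all 151, 70 were counted in 1 library, 7 in all 6 libraries, 76 in Alb-cre livers alone and 20 in lox/lox livers alone.

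Among the heavy chain constant genes, Igha, which encodes the IgA constant region (ENSMUSG00000095079, chromosome 12, 113254830 to 113260236, minus strand, GRCm38), had the highest level in Alb-cre livers. It had 3125, 3393 and 1729 deposited counts in Alb-cre livers against 12, 0 and 46 in lox/lox livers, which is 46.1, 37.4 and 20.4 CPM against 0.214, 0 and 0.787 CPM. The groups were far apart, and the lox/lox values equal no more than about 12 read pairs a library. Its log2 fold change of 6.69 ± 0.83 (SE) passed the threshold (edgeR adjusted p = 0.000787). The ratio of means was 104, a value set by the few lox/lox counts: it was 324 without lox/lox 3 and 69.2 without lox/lox 2.

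The IgM constant gene Ighm (113418558 to 113422730) did not follow Igha. It was at 4.16, 5.80 and 6.58 CPM in Alb-cre livers and at 4.73, 6.89 and 7.10 CPM in lox/lox livers, and the groups overlapped. Its log2 fold change of -0.18 ± 0.24 did not pass the threshold (edgeR adjusted p = 0.615) and turned positive with library sizes alone (0.19) and in limma on the FPKM values (0.12 to 0.16).

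Ighd, the IgD constant gene next to Ighm (113406604 to 113416324), fell in Alb-cre livers. It had 0, 0 and 4 counts in Alb-cre livers against 84, 83 and 24 in lox/lox livers, so that a single read pair or so was seen in one Alb-cre liver. Over summed counts the level was 67.1-fold lower, with a 95% counting interval of 11.5 to 2705 at 4 counts a read pair (edgeR adjusted p = 0.00702). Without Alb-cre 3 no Alb-cre count was left, and the level was at least 21.98-fold lower.

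IgG constant genes were at low levels in both groups, with sums of 1.74, 1.14 and 1.94 CPM in Alb-cre livers against 0.589, 0.701 and 0.394 CPM in lox/lox livers, a ratio of 2.86. Ighg2b (113302965 to 113307933) carried most of the sum in Alb-cre livers, at 79, 67 and 156 counts in Alb-cre livers and 10, 12 and 19 counts in lox/lox livers. It rose by 2.39 ± 0.55 on the log2 scale (edgeR adjusted p = 0.0116), a call that was lost without Alb-cre 3 (adjusted p = 0.0599). The other IgG genes were too low for a test. Ighg2c had 0, 32 and 8 counts in Alb-cre livers against 23, 4 and 0 in lox/lox livers, Ighg3 had 16, 0 and 0 against 0, 25 and 4, and Ighg1 had 23, 4 and 0 against none. Without Ighg2b the ratio of the IgG sums was 1.09.

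The make-up by class, taken per length (FPKM), set the groups apart. IgA made up 85.8%, 79.5% and 64.3% of the heavy constant FPKM in Alb-cre livers and 2.04%, 0% and 6.57% in lox/lox livers. IgM made up 10.9%, 17.4% and 29.2% in Alb-cre livers and 67.2%, 77.9% and 85.4% in lox/lox livers. The IgA shares and the IgM shares did not overlap between the groups. IgD took 0%, 0% and 0.198% in Alb-cre livers and 20.99%, 16.0% and 4.75% in lox/lox livers, and IgG between 3.14% and 6.31% against between 3.27% and 9.80%.

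**Figure D2:**
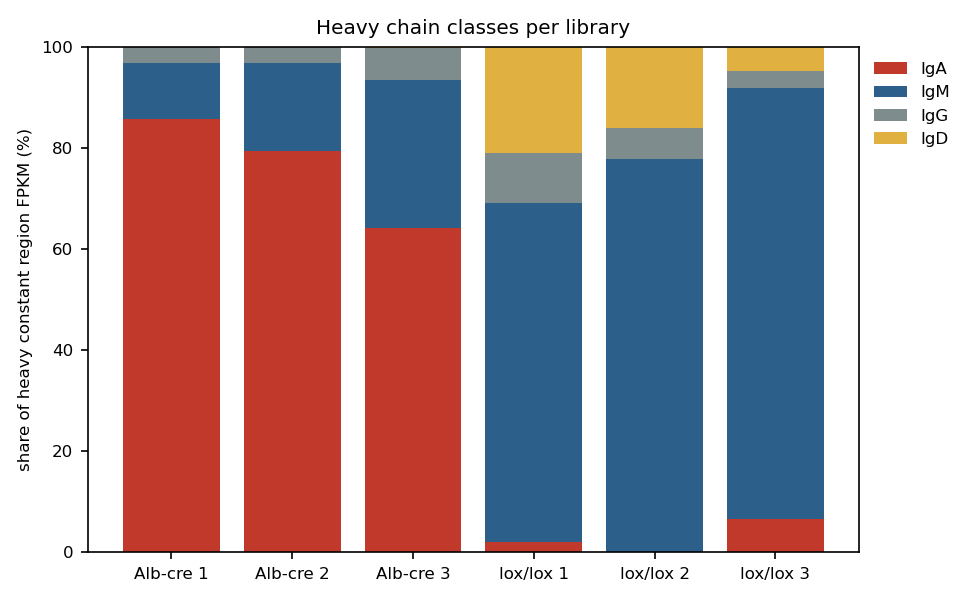
Share of the summed FPKM of the heavy chain constant genes held by IgA, IgM, IgG and IgD (vertical axis, percent) in each library (horizontal axis, Alb-cre livers left, lox/lox livers right). IgA held 64.3% to 85.8% in Alb-cre livers and at most 6.57% in lox/lox livers, where IgM held 67.2% or more.

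Jchain (ENSMUSG00000067149, chromosome 5, 88519809 to 88527891, minus strand), the linker of polymeric IgA and IgM, rose with Igha. It was at 8.33, 5.70 and 3.44 CPM in Alb-cre livers and at 0.410, 0.137 and 1.13 CPM in lox/lox livers, with no overlap. Its log2 fold change was 3.38 ± 0.69 (edgeR adjusted p = 0.00698) and the ratio of means 10.4, or 21.3 without lox/lox 3. Within Alb-cre livers the Jchain FPKM was 0.191, 0.161 and 0.178 of the Igha FPKM. In lox/lox livers it was 2.07 and 1.51 times the Igha FPKM in libraries 1 and 3, and library 2 had no Igha count.

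Igkc, the single kappa constant gene (ENSMUSG00000076609, chromosome 6, 70726435 to 70726966, plus strand), had the highest FPKM of any constant gene in both groups. It was at 34.2, 31.1 and 21.03 FPKM in Alb-cre livers and at 4.09, 4.56 and 3.43 FPKM in lox/lox livers. In CPM the values were 17.5, 15.9 and 11.3 against 2.68, 3.06 and 2.26, a log2 fold change of 2.48 ± 0.22 (edgeR adjusted p = 0.000182) and a ratio of means of 5.59. Its standard error was smaller than that of any other member that passed.

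The 3 lambda constant genes lie together on chromosome 16 and did not move alike. Iglc1 (19061618 to 19062071) rose: it had 279, 168 and 45 counts in Alb-cre livers against 8, 4 and 0 in lox/lox livers, 29.2-fold over summed counts with a 95% counting interval of 9.75 to 143 (edgeR adjusted p = 0.0100). The fitted log2 fold change of 4.92 was 4.06 without Alb-cre 1 and 5.91 without lox/lox 1. Iglc3, with 77, 15 and 51 counts against 31, 11 and 4, did not pass (log2 fold change 1.23, edgeR adjusted p = 0.362). Iglc2, with 11, 9 and 8 counts against 12, 4 and 16, did not pass either (-0.64, edgeR adjusted p = 0.593). No test of the difference between these genes was run.

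The balance of the light chains overlapped between the groups. Kappa made up 73.5%, 86.8% and 89.0% of the light constant FPKM in Alb-cre livers and 73.5%, 89.9% and 88.3% in lox/lox livers. The lambda constant sum was 5.41, 2.12 and 1.23 CPM in Alb-cre livers against 0.910, 0.325 and 0.342 CPM in lox/lox livers. Its ratio of 5.55 was 3.18 without Alb-cre 1 and 8.75 without lox/lox 1.

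V segments carry the part of the antibody that binds antigen, and each B cell clone carries its own productive combination of a heavy and a light V segment. The 136 counted V segments lie on chromosome 12 (heavy), 6 (kappa) and 16 (lambda). Heavy V segments summed to 15.4, 9.25 and 8.73 CPM in Alb-cre livers against 0.749, 1.71 and 1.80 CPM in lox/lox livers, a ratio of 7.86. Kappa V segments summed to 16.8, 15.9 and 10.97 CPM against 1.98, 1.93 and 3.44 CPM, a ratio of 5.94. The lambda V segments Iglv1 and Iglv2 summed to 7.71, 3.53 and 1.54 CPM against 0.392, 0.137 and 0 CPM, a ratio of 24.1 that was 14.4 without Alb-cre 1 and 62.3 without lox/lox 1. All 3 sums were higher in every Alb-cre liver. The V segments took 32.4%, 29.7% and 32.1% of the members' counts in Alb-cre livers and 22.01%, 23.1% and 29.7% in lox/lox livers.

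The signal was spread over many segments. In Alb-cre livers 33, 27 and 29 heavy V segments were counted, against 7, 11 and 7 in lox/lox livers, and the kappa V segments numbered 38, 34 and 25 against 12, 14 and 19. It took 8, 4 and 5 heavy V segments to reach 50% of the heavy V counts in Alb-cre livers and 3, 3 and 1 in lox/lox livers. For 90% it took 21, 16 and 19 in Alb-cre livers and 6, 8 and 4 in lox/lox livers. For kappa, 50% was reached with 6, 5 and 4 segments in Alb-cre livers and with 3, 3 and 6 in lox/lox livers, and 90% with 22, 18 and 14 against 9, 11 and 14. The heavy V counts behind these numbers equal about 262, 209.75 and 184.75 read pairs in Alb-cre livers and 10.5, 25 and 26.25 in lox/lox livers. The kappa V counts equal about 284.5, 360.75 and 232 read pairs against 27.75, 28.25 and 50.25. With lambda V segments included, all V counts equal about 677, 650.5 and 449 read pairs in Alb-cre livers and 43.8, 55.3 and 76.5 in lox/lox livers. A library with fewer read pairs can show fewer segments, and the part of this depth in the numbers of segments was not tested.

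**Figure D3:**
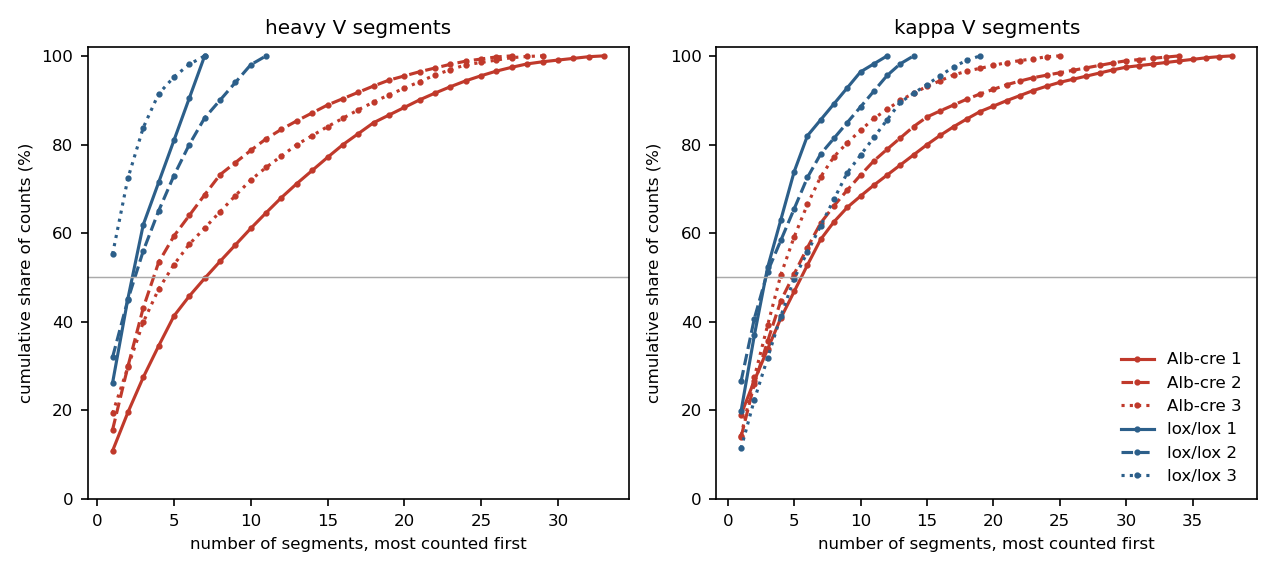
Cumulative share of the counts of heavy V segments (left) and kappa V segments (right) held by the most counted segments of each library (vertical axis, percent; horizontal axis, number of segments, most counted first), with Alb-cre livers in red and lox/lox livers in blue and a grey line at 50%. The heavy V curves of lox/lox livers end at 7 to 11 segments and those of Alb-cre livers at 27 to 33.

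By counts, the leading heavy V and kappa V segment was a different one in each library. By FPKM, Igkv8-24 led the kappa V segments in both Alb-cre 3 (13.5%) and lox/lox 2 (28.0%), and Ighv2-2 led the heavy V segments of Alb-cre 2. By counts it was, among heavy V segments, Ighv3-6 with 10.9%, Ighv4-1 with 15.6% and Ighv2-9-1 with 19.4% of the class counts in Alb-cre livers 1, 2 and 3. In lox/lox livers it was Ighv1-23 with 26.2% (11 counts), Ighv1-53 with 32% (32 counts) and Ighv1-69 with 55.2% (58 counts). These leaders rest on few read pairs, and no heavy V segment of lox/lox 1 reached 12 counts. For kappa the leading segment was Igkv1-117 with 19.1%, Igkv4-53 with 14.0% and Igkv1-110 with 14.3% in Alb-cre livers. In lox/lox livers it was Igkv3-10 with 19.8%, Igkv8-24 with 26.5% and Igkv4-86 with 11.4%. Some highly counted segments were private to a mouse. The leading segments Igkv4-53, with 202 counts in Alb-cre 2, and Ighv1-69, with 58 counts in lox/lox 3, had none elsewhere. Igkv8-28, which led in no library, had 87 counts in Alb-cre 1 and none elsewhere.

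Segments absent from both group mates numbered 27, 23 and 17 in Alb-cre livers and held 22.2%, 24.8% and 15.6% of the V counts. In lox/lox livers they numbered 15, 18 and 17 and held 66.3%, 64.7% and 72.9%. Lower depth of V counts in lox/lox livers goes with these shares, and its part was not tested. By subgroup, Ighv1, the one with the most counted members (29), was also the highest of the heavy V subgroups, at 5.31, 3.79 and 3.11 CPM in Alb-cre livers against 0.339, 0.991 and 1.23 CPM in lox/lox livers.

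**Figure D4:**
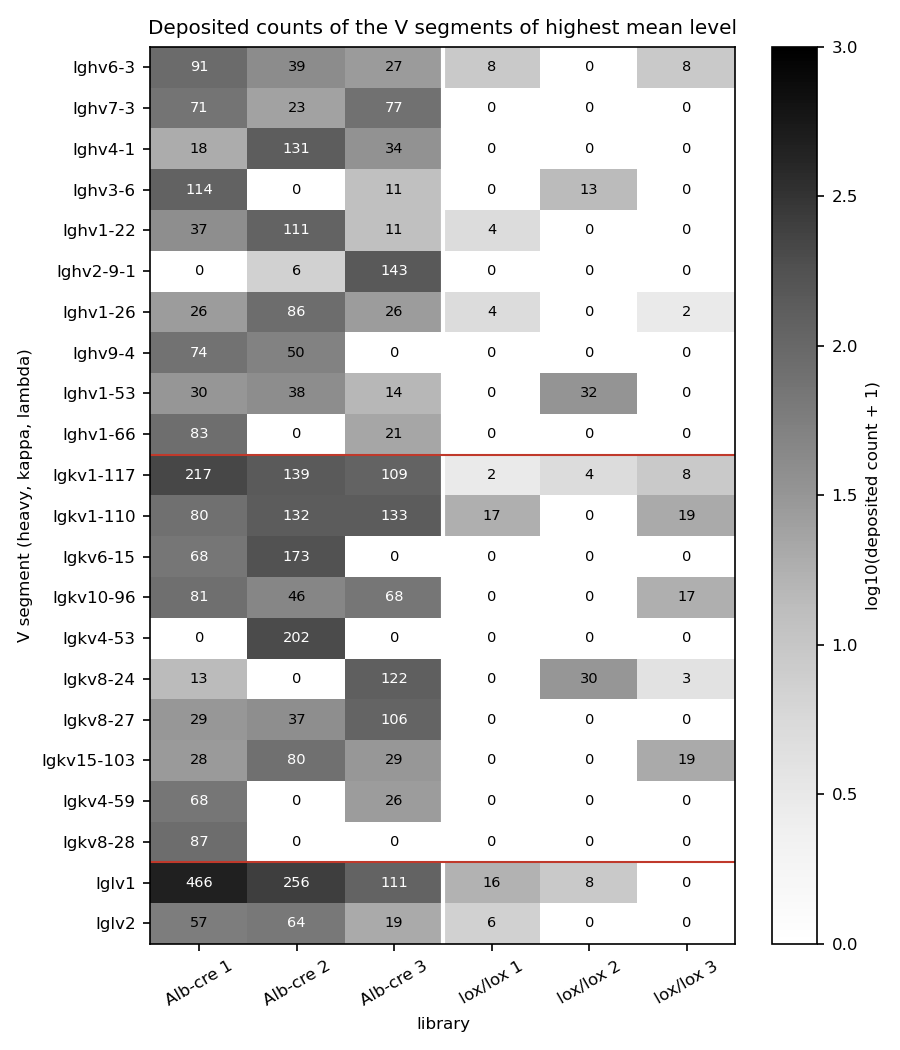
Deposited counts (printed in each cell; grey scale, log10 of count + 1) of the 10 heavy V and the 10 kappa V segments of highest mean CPM and of both lambda V segments (rows) in each library (columns, Alb-cre livers left of the white line). Igkv1-117 and Iglv1 have high counts in all 3 Alb-cre livers, whereas Igkv4-53 and Igkv8-28 are counted in 1 library each.

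Segments named here include near-identical pairs, which bear on how far counts can be assigned to a gene. For 2 such pairs, the last 300 bases of their V exon (exon 2) are shown from GENCODE M21 transcripts (GRCm38), 5′ to 3′ on the coding strand. Capitals mark the bases that differ within a pair. The kappa segments Igkv1-117 (chr6:68121528-68121827, plus strand) and Igkv1-110 (chr6:68270968-68271267, plus strand) were identical at 290 of 300 positions, or 96.7%.
Igkv1-117: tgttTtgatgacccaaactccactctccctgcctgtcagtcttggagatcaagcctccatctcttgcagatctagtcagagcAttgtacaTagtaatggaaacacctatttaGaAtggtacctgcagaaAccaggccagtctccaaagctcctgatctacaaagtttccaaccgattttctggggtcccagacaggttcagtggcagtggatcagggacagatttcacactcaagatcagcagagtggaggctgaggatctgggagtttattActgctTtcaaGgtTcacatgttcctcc
Igkv1-110: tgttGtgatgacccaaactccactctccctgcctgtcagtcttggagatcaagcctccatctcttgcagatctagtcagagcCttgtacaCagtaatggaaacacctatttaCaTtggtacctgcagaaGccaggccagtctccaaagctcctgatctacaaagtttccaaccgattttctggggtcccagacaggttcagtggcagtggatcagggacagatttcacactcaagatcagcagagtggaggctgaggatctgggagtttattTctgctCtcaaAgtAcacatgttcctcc
The lambda segments Iglv1 (chr16:19085017-19085316, minus strand) and Iglv2 (chr16:19260401-19260700, minus strand) were identical at 292 of 300 positions, or 97.3%.
Iglv1: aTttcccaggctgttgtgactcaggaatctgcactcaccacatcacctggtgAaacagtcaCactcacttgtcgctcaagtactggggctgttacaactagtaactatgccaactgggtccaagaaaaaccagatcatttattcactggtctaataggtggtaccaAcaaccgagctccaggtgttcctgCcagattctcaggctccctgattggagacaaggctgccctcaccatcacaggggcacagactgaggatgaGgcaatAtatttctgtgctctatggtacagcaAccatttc
Iglv2: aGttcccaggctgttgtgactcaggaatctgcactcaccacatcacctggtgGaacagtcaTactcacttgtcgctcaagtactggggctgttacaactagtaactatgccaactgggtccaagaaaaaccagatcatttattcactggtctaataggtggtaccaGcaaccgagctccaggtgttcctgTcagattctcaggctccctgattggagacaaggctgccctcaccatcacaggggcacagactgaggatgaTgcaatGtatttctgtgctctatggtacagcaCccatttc
Of the 136 counted V segments, 118 share a stretch of 50 bases with another immunoglobulin gene, and 20 share at least 50% of such stretches. Among the segments of the plot of counts, Igkv4-59 shares 74.3% of its stretches, Ighv1-53 57.6%, Igkv1-110 50.9%, Igkv1-117 49.9% and Ighv1-26 49.0%. The split of counts between such relatives is uncertain.

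The first of each pair had the higher mean count in Alb-cre livers. Igkv1-117 had 217, 139 and 109 counts in Alb-cre livers against 2, 4 and 8 in lox/lox livers and was the only V segment counted in all 6 libraries. Its log2 fold change was 4.61 ± 0.66 (edgeR adjusted p = 0.00142), or 5.21 without lox/lox 3. Its relative Igkv1-110, with 80, 132 and 133 counts against 17, 0 and 19, did not overlap between the groups but missed the threshold (2.74 ± 0.98, edgeR adjusted p = 0.0605).

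Iglv1 had 466, 256 and 111 counts in Alb-cre livers against 16, 8 and 0 in lox/lox livers, the highest count of any V segment in Alb-cre 1 and Alb-cre 2. Its log2 fold change of 4.69 ± 1.03 (edgeR adjusted p = 0.00912) was 3.87 without Alb-cre 1 and 5.71 without lox/lox 1. Iglv2, with 57, 64 and 19 counts against 6, 0 and 0, was 16.6-fold higher over summed counts, with a 95% counting interval of 3.62 to 239 (edgeR adjusted p = 0.0482). That call was lost without any one library other than lox/lox 1 (adjusted p = 0.0643 to 0.147).

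In 3 segments that passed, no lox/lox library had a count. Ighv7-3 (chromosome 12, 114153180 to 114153644) had 71, 23 and 77 counts in Alb-cre livers, at least 10.6-fold higher than the lox/lox floor (edgeR adjusted p = 0.00568). Ighv4-1 (113948282 to 113948796) had 18, 131 and 34 counts, at least 10.1-fold higher (edgeR adjusted p = 0.00877), or at least 4.81-fold without Alb-cre 2. Igkv8-27 (chromosome 6, 70171809 to 70172270) had 29, 37 and 106 counts, at least 10.03-fold higher (edgeR adjusted p = 0.00545), or at least 6.02-fold without Alb-cre 3. With no lox/lox count, the filter let these segments be tested only through their counts in all 3 Alb-cre livers. Their presence in each Alb-cre liver was thus set by the filter and is not a result. The adjusted p-values of these segments carry the same limit.

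Ighv1-26 was the remaining V segment past the threshold, with 26, 86 and 26 counts in Alb-cre livers against 4, 0 and 2 in lox/lox livers. Over summed counts it was 16.4-fold higher, with a 95% counting interval of 3.56 to 235 (edgeR adjusted p = 0.0239). The call was lost without Alb-cre 1 (adjusted p = 0.0534), without Alb-cre 2 (0.118) and without lox/lox 3 (0.0706). The tested V segments that did not pass, other than Igkv1-110, had log2 fold changes from 0.90 (Ighv1-53 and Igkv4-72) to 3.08 (Igkv10-96). Igkv4-72 was named after its values were seen. Kappa J segments gave 2, 3 and 0 counts in lox/lox livers and none in Alb-cre livers, under the floor in both groups.

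**Figure D5:**
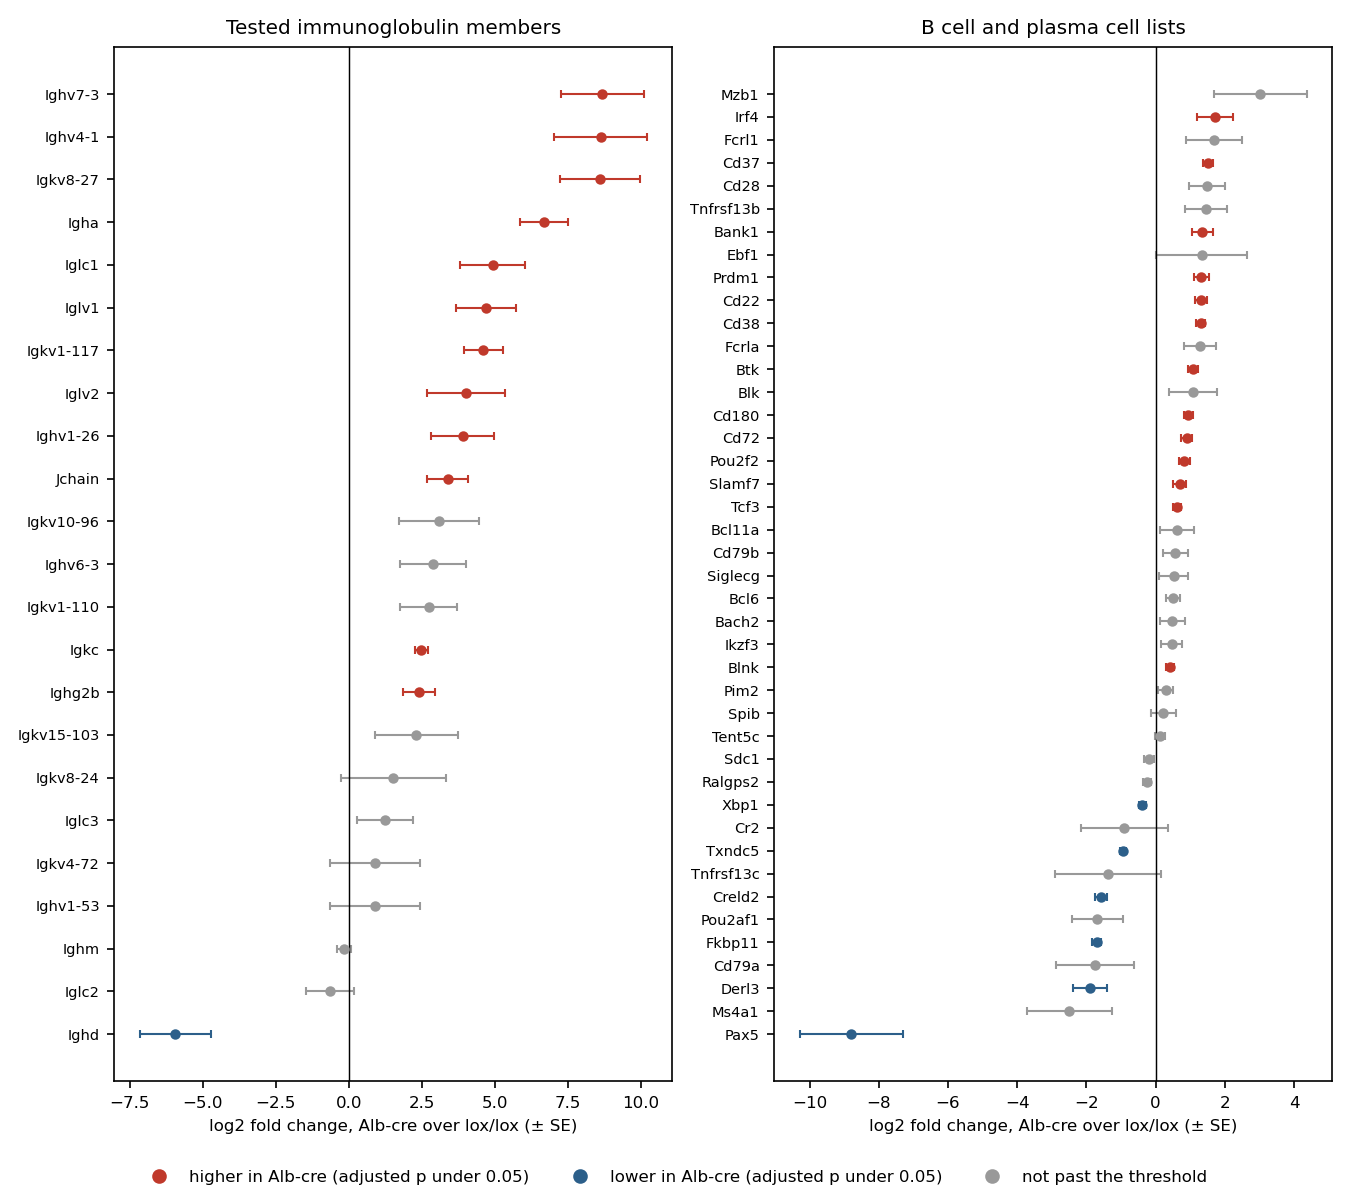
Log2 fold change of Alb-cre over lox/lox livers with its SE (horizontal axes) for the 23 tested immunoglobulin members (left) and for tested genes of the B cell and plasma cell lists (right), with genes past an adjusted p of 0.05 by edgeR in red (higher) or blue (lower). Values of genes with no count in a group (Ighv7-3, Ighv4-1, Igkv8-27, Pax5) depend on the prior count and are not folds that can be read off.

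Genes of the cells that make antibodies did not move as a block. Of 21 B cell surface and receptor signalling genes, 18 were tested, of which 7 rose, 1 fell and 10 did not pass, or 38.9% and 5.56% beside 19.9% and 18.0% of all tested genes. Their median log2 fold change was 0.74, against 0.05 over all tested genes. The inhibitory receptor Cd22 was at 10.8 ± 1.302 CPM in Alb-cre livers and 4.35 ± 0.505 CPM in lox/lox livers (SD, n = 3 each; log2 fold change 1.31 ± 0.17, edgeR adjusted p = 0.000878). The tetraspanin Cd37 rose by 1.51, the kinase Btk by 1.08 and the Toll-like receptor relative Cd180 by 0.94 on the log2 scale. Btk, Cd37 and Cd180 are also expressed by myeloid cells.

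The antigen receptor gene Cd79a, at 0.309, 0.298 and 0 CPM in Alb-cre livers and 0.535, 0.786 and 0.736 CPM in lox/lox livers, did not pass (adjusted p = 0.263), nor did the B cell membrane protein gene Ms4a1, at 0, 0.176 and 0.142 CPM against 0.464, 1.25 and 0.137 CPM (adjusted p = 0.155). Cd79a was lower in every Alb-cre liver than in any lox/lox liver, whereas Ms4a1 overlapped. Cd79a and Ms4a1 were chosen after their values were seen. Of the 21 genes of this list, 12 had Alb-cre above without overlap and 3 had Alb-cre below. Among all genes with a count, those shares were 21.3% and 18.0%.

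Of 10 B lineage transcription factors, all tested, 2 rose (Pou2f2 by 0.83 and Tcf3 by 0.62 on the log2 scale), 1 fell and 7 did not pass (median log2 fold change 0.49), shares of 20% and 10% beside 19.9% and 18.0% of all tested genes. The one that fell was Pax5, the factor that maintains B cell identity and is shut off in plasma cells. It had no count in Alb-cre livers and 87, 36 and 14 counts in lox/lox livers, at least 16.3-fold lower (edgeR adjusted p = 0.00661), or at least 8.66-fold without lox/lox 1. In limma on FPKM values, where the pseudocounts outweigh its level, Pax5 did not pass (adjusted p = 0.0845 to 0.164). With no Alb-cre count, the filter let Pax5 be tested only through its lox/lox counts, and its edgeR adjusted p carries that limit.

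The plasma cell list was split. Of 16 genes, 15 were tested, of which 4 rose, 5 fell and 6 did not pass (median 0.29), or 26.7% and 33.3% beside 19.9% and 18.0% of all tested genes. Cd38, an ectoenzyme of plasma cells that other leukocytes also carry, rose by 1.31 ± 0.13 on the log2 scale, at 60.3 ± 8.33 CPM in Alb-cre livers and 24.3 ± 1.897 CPM in lox/lox livers. A group of 3 members that hepatocytes also express for protein folding in the endoplasmic reticulum fell: Fkbp11 by 1.71, Creld2 by 1.58 and Txndc5 by 0.94. Xbp1, a factor of secretory cells at 90.8 ± 8.60 CPM in Alb-cre livers and 118 ± 11.2 CPM in lox/lox livers, fell by 0.38, but its log2 fold change was -0.01 with library sizes alone (adjusted p = 0.942). The Xbp1 call was also lost in limma on FPKM values (adjusted p = 0.814 to 0.815). It was lost as well without Alb-cre 1, Alb-cre 3 or lox/lox 2 (edgeR adjusted p = 0.0697 to 0.0939). Hepatocyte markers fell beside these genes: 8 of 10 were lower and none was higher, or 80% and 0% beside 18.0% and 19.9% of all tested genes. Their median was -0.80, against 0.05 over all tested genes. The part of hepatocytes in the values of the plasma cell list was not tested.

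The plasma cell regulators Prdm1 and Irf4, chosen after their values were seen as were Xbp1, Mzb1 and Tnfrsf17, were among the genes that rose. Prdm1 was at 5.56, 5.34 and 4.88 CPM in Alb-cre livers and 2.497, 1.64 and 2.16 CPM in lox/lox livers (log2 fold change 1.32 ± 0.23, edgeR adjusted p = 0.00320). Irf4 was at 2.14, 1.89 and 0.898 CPM against 0.392, 0.325 and 0.770 CPM (1.72 ± 0.52, edgeR adjusted p = 0.0347), a call lost without Alb-cre 1, Alb-cre 2, lox/lox 1 or lox/lox 2 (adjusted p = 0.0900 to 0.120). Mzb1, a chaperone of marginal zone B cells and plasma cells, had 11, 12 and 27 counts against 4, 0 and 0 and did not pass (edgeR adjusted p = 0.114). Tnfrsf17, the receptor BCMA of plasma cells, was listed at 0 in all 6 libraries. The remaining calls of the list, also named after their values were seen, were Slamf7, a surface receptor, higher by 0.70 and lost without Alb-cre 2, Alb-cre 3 or lox/lox 1 (adjusted p = 0.0608 to 0.0805), and Derl3, of the degradation machinery of the endoplasmic reticulum, at -1.90 and lost without Alb-cre 1, Alb-cre 3 or lox/lox 2 (adjusted p = 0.0600 to 0.0643).

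With library sizes alone, 18 genes of these 3 lists were higher and 6 lower, against 13 and 7 with TMM factors. Calls over all 18931 tested genes moved the same way, to 6459 higher and 1249 lower, against 3767 and 3415. That scaling moved the median of all tested genes to 0.41.

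The antibody rearrangement and diversification list moved in both directions. Of 15 genes 8 were tested, of which 2 rose (Polm by 0.96 and Prkdc by 0.53), 2 fell and 4 did not pass (median 0.06), so that 25% moved each way beside 19.9% and 18.0% of all tested genes. Rag1, Rag2, Vpreb2 and Igll1, genes of developing lymphocytes that were named after their values were seen, were at 0 in every library. Dntt, the polymerase that adds nucleotides at V(D)J junctions, fell by 3.65 ± 0.36 on the log2 scale, at 1.39 ± 0.115 CPM in Alb-cre livers and 17.5 ± 8.85 CPM in lox/lox livers (edgeR adjusted p = 0.000281). Ung, a uracil glycosylase that also repairs DNA in cells other than B cells, fell by 1.40. The call of Prkdc was lost without any one library other than lox/lox 3 (adjusted p = 0.0609 to 0.105).

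Of 13 genes for B cell survival and homing, 9 were tested, of which 5 rose, 1 fell and 3 did not pass (median 0.73), against 19.9% higher and 18.0% lower over all tested genes. Tnfsf13b (BAFF), a survival factor of B cells, was at 2.95, 4.61 and 4.44 CPM in Alb-cre livers and 0.535, 0.718 and 1.16 CPM in lox/lox livers (log2 fold change 2.31 ± 0.37, edgeR adjusted p = 0.00232). Tnfsf13 (APRIL), a survival factor of plasma cells, was at 2.40, 3.02 and 2.86 CPM against 0.767, 0.752 and 0.736 CPM (1.88 ± 0.28, edgeR adjusted p = 0.00173). Neither gene overlapped between the groups. Cxcl12, a chemokine that retains plasma cells in bone marrow, rose by 0.73 and Tgfb1, a cytokine that promotes switching to IgA, by 0.75 on the log2 scale. The receptor of Cxcl12, Cxcr4, rose by 1.15. Cxcl13, the chemokine that draws B cells into follicles, fell by 2.11, at 0.280, 0.199 and 0.508 CPM in Alb-cre livers and 0.678, 1.61 and 1.99 CPM in lox/lox livers (edgeR adjusted p = 0.0257), a call lost without Alb-cre 1, Alb-cre 2, lox/lox 2 or lox/lox 3 (adjusted p = 0.0662 to 0.0838). Cxcr4 and Cxcl13 were chosen after their values were seen.

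Of 6 genes for immunoglobulin transport and binding, all tested, 1 rose, 2 fell and 3 did not pass (median -0.29), or 16.7% and 33.3% beside 19.9% and 18.0% of all tested genes. Pigr, the carrier of polymeric IgA, fell by 1.37 ± 0.19 on the log2 scale, at 203, 273 and 354 CPM in Alb-cre livers and 683, 714 and 748 CPM in lox/lox livers (edgeR adjusted p = 0.00111). Cd5l, a macrophage protein that binds IgM in plasma, rose by 0.95, at 648 ± 92.8 CPM in Alb-cre livers and 335 ± 35.0 CPM in lox/lox livers (edgeR adjusted p = 0.00115). B2m, the light chain of MHC class I and of the neonatal Fc receptor, fell by 0.53, a call lost with library sizes alone (-0.16, adjusted p = 0.179) and in limma on FPKM values.

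Among markers of other cells, part of the T and NK cell list was higher in Alb-cre livers. Of 18 T and NK cell markers, 17 were tested, of which 8 rose, none fell and 9 did not pass (median 1.504). These are shares of 47.1% and 0% beside 19.9% and 18.0% of all tested genes. The count rested on single libraries: it was 4 without Alb-cre 1, 2 without Alb-cre 2, 2 without Alb-cre 3, 2 without lox/lox 1 and 3 without lox/lox 2, but 9 without lox/lox 3, and 5 with no filter on low counts. Their summed level was 24.6 to 31.4 CPM in Alb-cre livers and 10.8 to 14.6 CPM in lox/lox livers, and all of the list was counted in at least 1 library. Cd8a, the coreceptor of cytotoxic T cells, rose by 2.20 ± 0.39 (edgeR adjusted p = 0.00347) and was the only one of the 8 whose call held in every alternative run. Of 8 red cell markers 5 were tested, of which 1 fell (Alas2 by 2.00, the first enzyme of heme synthesis in red cell precursors), with sums of 118 to 177 CPM against 174 to 183 CPM. That is 20% lower beside 18.0% of all tested genes. Of 12 pancreatic acinar markers 10 were at 0 in every library and 2 were tested, of which 1 (Cela2a) fell, or 50% beside 18.0% of all tested genes. The call of Cela2a was lost without any one library other than lox/lox 2 (edgeR adjusted p = 0.0635 to 0.102). The part of these other cells in the immunoglobulin values was not tested.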

How the data were processed

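RNA of 6 livers, 3 for each genotype, was sequenced. Libraries were made from poly(A) RNA, stranded by dUTP, with molecular identifiers in the adapters, and read as pairs of 150 bases (Illumina NovaSeq), per the labels' protocols. StringTie 1.3.4d, HISAT2 2.0.4, cutadapt 1.9, edgeR, DESeq2 and UMI-tools are listed without roles, and mm9 as the build, per the submitters' processing notes. All 151 members nevertheless had the chromosome, start and end of GENCODE M21 (GRCm38), so positions are given in GRCm38. The authors deposited whole-number counts, treated here as estimated counts because low values pile up at multiples of 4, and FPKM values, per the file headers. Whether molecular identifiers were collapsed is not given in the sources used here. The columns named wt were assigned to the lox/lox genotype, the only other genotype of the series, by replicate number. No other column of per-sample values was present (0).

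The planned test assumed counts. The deposited values were whole numbers, were treated as estimated counts and needed no rounding. Counts were tested with edgeR 4.0.16 (R 4.3.3) by its quasi-likelihood test with TMM factors, filterByExpr (minimum count 10, minimum total 15), two-sided, with Benjamini-Hochberg adjustment over all 18931 genes tested and a threshold of 0.05. The script was tested on simulated data. Alternatives were DESeq2 1.42.0, RLE factors, library sizes alone, no filter, a mean count of at least 40, limma 3.58.1 on log2(FPKM + 0.5), + 1 or + 0.1, counts divided by 4, a replicate block, and leaving out each library. CPM are deposited counts per 1000000 of the TMM-scaled library. FPKM were used to compare levels between genes of different length. Counting intervals (95%, exact binomial) used counts divided by 4. The labels give no litter, batch or date. With 3 against 3 no exact permutation test can go below 0.1, so none is printed.

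The members and the gene lists were chosen with earlier results of these data known. Named were the constant genes and Jchain, V segments past the threshold, the 10 heavy V, 10 kappa V and both lambda V segments of highest mean CPM (shown together in the plot of counts), the top segment of each library, and up to 4 genes of smallest p in each list. A member of the B cell surface list is not reported here. Any further gene is said to have been chosen with its values in view.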

Additional observations from a re-analysis of the deposited data

How the results depend on the processing

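Across the alternatives, 8 to 16 members were called higher, against 12: 14 with DESeq2, 12 with RLE factors, 13 with library sizes alone, 12 without a filter, 9 at a mean count of at least 40, 16 in limma on FPKM at each pseudocount, 8 with counts divided by 4 and 13 to 16 without 1 library. The member called lower (Ighd) was called in each of these except at a mean count of at least 40 and with counts divided by 4, where it was not tested and the count was 0. In those 2 runs no gene named here that was still tested lost its call. Runs without 1 library tested more genes, 19502 to 19951 against 18931, so their counts of calls are not like for like. The main-run calls of Ighg2b, Ighv1-26 and Iglv2 were each lost in at least 1 of them. Genes of the B cell and plasma cell lists called higher numbered 21 in limma on FPKM at each pseudocount, against 13, and 10 to 16 without 1 library, and those called lower 5 to 7. The ratio of the sum over all members was 7.93 in FPKM and 3.86 without Igha, that of IgG 1.09 without Ighg2b, and that of Igkc 7.25 with library sizes alone and 7.15 in FPKM. Leaving out 1 library gave ratios of 69.2 to 324 for IgA, 7.56 to 21.3 for the J chain and 14.4 to 62.3 for lambda V. The log2 fold change of Ighm, which did not pass the threshold, was 0.19 with library sizes alone and 0.14, 0.12 and 0.16 in limma on log2(FPKM + 0.5), + 1 and + 0.1. The scalings themselves move the median of all genes. Over all 18931 tested genes, 3767 were called higher and 3415 lower in the main run, against 6459 and 1249 with library sizes alone. In limma on FPKM, 6651 to 6671 of all tested genes were called higher and 1362 to 1364 lower. Deviations from the group means of same-numbered libraries correlated at 0.016, 0.031 and 0.035. These values cannot settle whether replicate numbers pair the mice, since the labels give no litter, batch or date. With the replicate number as a block, 10 members were higher and 1 lower, and 11 and 7 genes of the B cell and plasma cell lists. Depth limits the V segments: 122 of 136 could not be tested.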
